A study of Mus musculus with 24 samples.

Results

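The regions described here are 167 stretches of the mouse genome at which the negative elongation factor (NELF) was called over a broad interval through 2 of its subunits, while the elongation factor SPT5 was not called over a long one. They come from chromatin immunoprecipitation followed by sequencing (ChIP-seq) in E14, an established mouse embryonic stem cell line grown in medium with serum and the cytokine LIF. All cells carried the genotype given as Nelfb deg, and the 6 libraries used here were the controls of a study that degrades NELFB with dTAG-13. They comprised 2 libraries of NELFB:HA, pulled down through an HA epitope tag, 2 of NELFE and 2 of SPT5. Samples with dTAG-13, of naive or EpiLC cells and of input are not analysed here, so no effect of losing NELFB is described.

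The members were selected on measured values, namely NELF pileup and length and SPT5 length. In each of the 4 NELF lists the 10000 intervals of highest pileup (the mean ChIP coverage over an interval) on chromosomes 1 to 19 were kept, with chromosome 14 beyond 95 Mb left out. Of the 10000 NELFE 1 intervals, 1651 were 3000 bp or longer, and 367 of these overlapped intervals of at least 3000 bp in NELFE 2, NELFB:HA 1 and NELFB:HA 2. At 200 of the 367 a SPT5 interval of 8000 bp or more overlapped in at least 1 SPT5 list, and the remaining 167 are the broad NELF regions without a long SPT5 interval. Pileup and length in the NELF lists and length in the SPT5 lists thus selected the regions, and are given below as a description with no test. Fold enrichment, which is computed from pileup, is not free of this selection. The 167 regions lay on all 19 autosomes, with the most on chromosome 7 (16 regions) and chromosome 8 (14 regions).

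NELF and DSIF, the complex that contains SPT5, bind RNA polymerase II soon after it begins transcription and hold it in the pause close to the promoter. When the kinase P-TEFb phosphorylates the polymerase, NELF and SPT5, NELF leaves, while SPT5 remains with the polymerase as it elongates through the gene. NELF is therefore usually mapped as a sharp signal next to transcription starts and SPT5 as a signal that can continue into gene bodies. Immediate-early genes such as Fos and Myc, and heat shock genes, are textbook examples of control at the pause. Replication-dependent histone genes are short genes without introns, transcribed in S phase, whose mRNA ends in a stem-loop.

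The tables of genes and of starts came from RefSeq, build GRCm38.p6, the assembly that the labels name as mm10. The promoters of 6 genes are printed to show what lay upstream of the starts inside these regions, each as the 250 bases before the start, 5′ to 3′ on the strand of the gene. H1f1, which encodes a linker histone, had the broad region of highest mean NELF fold enrichment. H2bc18, a core histone H2B gene, Fos, a subunit of the AP-1 transcription factor, and E2f3, a transcription factor of the cell cycle, had the highest mean NELF folds among further regions that hold a start of the table, for the histone, immediate-early and cell cycle lists (the last tied with the zinc finger list in number of member genes). Zbtb45, a zinc finger gene, and Jup, which encodes the junction protein plakoglobin, lay in the region with a start of greatest mean NELF length and the one of shortest NELFE 1 interval. The windows are chr13:23763418-23763667 (plus strand) for H1f1, chr3:96269450-96269699 (plus) for H2bc18, chr12:85473640-85473889 (plus) for Fos, chr13:29984392-29984641 (minus) for E2f3, chr7:13009853-13010102 (minus) for Zbtb45 and chr11:100397791-100398040 (minus) for Jup. Capitals mark matches, on either strand, to GGGCGG (the GC box), CCAAT (the CCAAT box), TATAAA (the TATA box), CCGGAAG (bound by ETS factors), GCGCATGCG (NRF1) and GCCATNTTG (YY1).
H1f1: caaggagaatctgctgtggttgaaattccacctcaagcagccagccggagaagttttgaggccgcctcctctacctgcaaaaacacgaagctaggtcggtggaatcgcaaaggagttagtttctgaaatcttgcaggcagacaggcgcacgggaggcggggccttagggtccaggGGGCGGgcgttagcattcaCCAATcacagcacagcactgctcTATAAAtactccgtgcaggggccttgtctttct
H2bc18: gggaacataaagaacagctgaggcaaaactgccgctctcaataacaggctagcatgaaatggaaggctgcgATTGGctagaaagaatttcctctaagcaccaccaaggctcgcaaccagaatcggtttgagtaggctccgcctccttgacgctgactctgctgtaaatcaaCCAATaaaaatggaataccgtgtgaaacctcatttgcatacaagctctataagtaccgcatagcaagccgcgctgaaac
Fos: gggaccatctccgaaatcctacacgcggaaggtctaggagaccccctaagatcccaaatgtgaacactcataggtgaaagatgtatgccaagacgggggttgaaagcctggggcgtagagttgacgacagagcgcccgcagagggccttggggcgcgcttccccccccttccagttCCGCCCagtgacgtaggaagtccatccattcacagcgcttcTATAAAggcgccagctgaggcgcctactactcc
E2f3: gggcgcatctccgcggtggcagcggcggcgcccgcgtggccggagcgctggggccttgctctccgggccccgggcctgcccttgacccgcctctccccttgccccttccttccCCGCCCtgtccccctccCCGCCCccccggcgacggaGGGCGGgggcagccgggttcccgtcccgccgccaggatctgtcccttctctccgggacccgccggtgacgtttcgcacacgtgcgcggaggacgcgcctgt
Zbtb45: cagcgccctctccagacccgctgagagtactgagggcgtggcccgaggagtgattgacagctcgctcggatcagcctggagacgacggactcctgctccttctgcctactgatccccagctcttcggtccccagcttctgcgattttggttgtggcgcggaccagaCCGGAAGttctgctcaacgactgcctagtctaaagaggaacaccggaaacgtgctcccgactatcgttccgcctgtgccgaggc
Jup: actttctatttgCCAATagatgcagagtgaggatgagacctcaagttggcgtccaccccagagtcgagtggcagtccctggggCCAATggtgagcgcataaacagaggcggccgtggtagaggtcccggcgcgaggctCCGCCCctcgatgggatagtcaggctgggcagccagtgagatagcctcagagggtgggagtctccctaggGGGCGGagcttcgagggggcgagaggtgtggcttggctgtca
The H1f1 window held 1 GC box, 1 CCAAT box and 1 TATA box, and the Fos window 1 GC box and 1 TATA box. The H2bc18 window had 2 CCAAT boxes, the E2f3 window 3 GC boxes and the Jup window 2 of each. The Zbtb45 window had only the ETS sequence among the motifs searched.

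Across the 174 table starts in the regions, motif content was close to that of other strong NELFE intervals. A GC box was found in 59.2% of the windows (95% Wilson interval 51.8 to 66.2%), against 65.5% of the 9388 windows in all 10000 NELFE intervals and 33.0% of the 31396 windows of the table on the autosomes used. A CCAAT box was in 40.2% (33.2 to 47.7%) against 36.2%. A TATA box was in 8.05% (4.85 to 13.1%), against 5.13% in all strong NELFE intervals and 12.4% in the whole table. The 13 genes with it include Fos, Gadd45g, Cdk6, Ing1, H1f1, H2ac20 and H2ac21. The ETS sequence was in 10.9% (7.10 to 16.4%) against 17.1%, and here the interval lies below the share in all strong NELFE intervals. At the 233 starts in broad NELF regions with a long SPT5 interval it was in 8.15%, so a lower share was common to both broad classes. NRF1 and YY1 sequences were in 2.30% and 1.72% of the windows, against 3.79% and 2.43%. The median window held 17.5 CpG, against 19 in all strong NELFE intervals and 6 in the whole table. Windows are not replicates, some come from 1 gene with several starts or from 1 shared region, and these shares carry no test.

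The regions were broad without a higher NELF fold, taken over the whole interval, than narrow intervals that had a fold in the same list. Fold enrichment is the authors' ratio of ChIP coverage to the local background in the input, and for each region the strongest overlapping interval of each list was taken. A lower fold can mean fewer cells with the factor bound or less of it per cell, which cannot be told apart in bulk. Because coverage is averaged over an interval, folds of long and short intervals do not compare their highest points. A longer region can also overlap more intervals of a list, and the strongest of more intervals can be higher. The part of interval length in the fold was not tested. The median fold over the 167 regions was 4.22 in NELFB:HA 1 and 3.40 in NELFB:HA 2, 4.76 in NELFE 1 and 5.00 in NELFE 2, and 3.09 in SPT5 1 and 2.92 in SPT5 2. The narrow intervals are the 8349 NELFE 1 intervals under 3000 bp. Their medians were 4.25, 3.41, 4.77 and 5.33 in the NELF lists in the same order. Only the NELFE 1 median covers all 8349. The others cover the 7335, 7073 and 7494 that overlapped an interval kept in NELFB:HA 1, NELFB:HA 2 and NELFE 2. Narrow intervals without one have no fold there, so these medians may overstate the fold of the class. The SPT5 medians of narrow intervals cover 8177 in SPT5 1 and 8085 in SPT5 2. For each NELF antibody, the means of the library medians in broad regions and in narrow intervals differed by less than the larger SD between libraries, with NELFE at 4.88 ± 0.169 (SD, n = 2) in the broad regions and 5.05 ± 0.392 in the narrow intervals. For NELFB:HA the means were 3.81 ± 0.585 and 3.83 ± 0.590. The broad regions with a long SPT5 interval had higher NELF medians, at 5.76 ± 0.184 for NELFE, a gap larger than the SD, and 4.39 ± 0.431 for NELFB:HA, a gap about the size of the SD. The SPT5 median stood at 3.01 ± 0.120 in the broad regions, above 2.66 ± 0.0131 in the narrow intervals and below 3.21 ± 0.194 in the broad regions with a long SPT5 interval, where the difference is of the size of the SD.

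Lengths differed between the classes as the rule sets them. The median length over the 167 regions was 4559 and 4586 bp in the NELFB:HA lists, 4058 and 4206 bp in the NELFE lists and 4818 and 4085 bp in the SPT5 lists. In the 200 regions with a long SPT5 interval the SPT5 medians were 11652 and 11462 bp, and the NELF medians were 4991, 5349, 4704 and 5140 bp. The SPT5 interval at a member was longer than its NELFE 1 interval in both SPT5 lists at 69 regions and shorter in both at 45. In SPT5 1 the median difference was 544 bp and in SPT5 2 it was -104 bp, so the lists did not share a direction. SPT5 1 had 27324697 tags and SPT5 2 had 62312558.

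**Figure D1:**
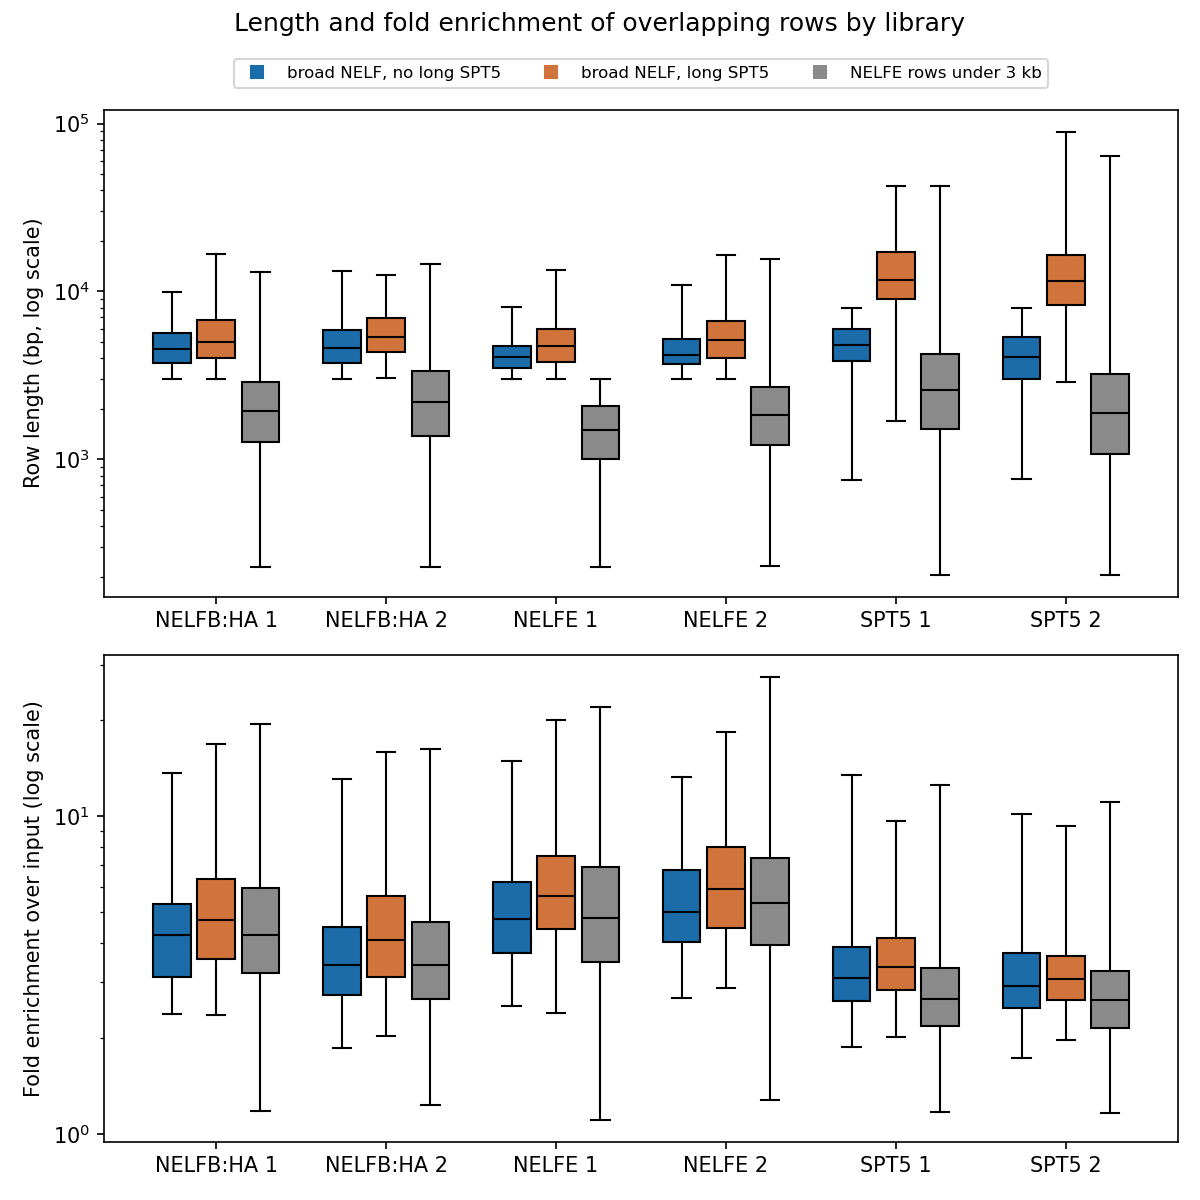
Length in bp (top) and fold enrichment over input (bottom), both on log axes, of the interval that overlapped each region in each of the 6 libraries, for the 167 broad NELF regions without a long SPT5 interval, the 200 with one and the 8349 narrow NELFE intervals. Boxes give quartiles, lines the median and whiskers the lowest and highest region. Narrow intervals count only where an interval of the list overlapped (7335 and 7073 in NELFB:HA, 8349 and 7494 in NELFE, 8177 and 8085 in SPT5). NELF folds of the 167 regions lie beside those of the narrow intervals although their lengths do not.

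How broad a region was repeated less between libraries than how enriched it was. Spearman's rho over the 167 regions between replicates was 0.841 for the NELFE fold, 0.814 for the NELFB:HA fold and 0.897 for the SPT5 fold. For length it was 0.37 for NELFE, 0.0727 for NELFB:HA and 0.518 for SPT5. Regions share their library's depth and input, the range of lengths is limited by the rule, and the values carry no test. The region at Sars, the cytosolic seryl-tRNA synthetase gene, shows this: it spanned 8588 and 3460 bp in NELFB:HA and 3012 and 4169 bp in NELFE. The region at H2bc18 and H3c13 spanned 9148 bp in NELFB:HA 1 and 3236 bp in NELFB:HA 2. The region at Pou5f1 was more even, with 6143, 5926, 6550 and 5576 bp in the same order.

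NELFE gave higher folds than NELFB:HA at most regions, but the difference between the antibodies could not be called. The NELFE medians (4.76 and 5.00) lay above the NELFB:HA medians (4.22 and 3.40) without overlap. The difference of the means was 1.07, with a pooled SD of 0.430. The two-sided exact permutation test of the 4 medians gave p = 0.33, the smallest that 2 against 2 libraries allow. The test could therefore not have called any difference. Fold is also computed from pileup, which entered the rule, so nothing is concluded from the test. In the narrow intervals, counted in each list only where they had a fold, the difference was 1.22. At 105 of the 167 regions both NELFE folds exceeded both NELFB:HA folds, or 62.9% (55.3 to 69.8%), beside 54.1% of the 8028 NELFE intervals with an overlapping interval in all 4 NELF lists. The reverse order, with both NELFB:HA folds above both NELFE folds, occurred among others at Fosl2 and Gm10910, named after their values were seen. Its share over all strong NELFE intervals is not given here, so it is not read as rare or frequent. At Gm10910 NELFB:HA gave 8.22 and 8.66 and NELFE 6.86 and 6.98.

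SPT5 was present at most of these regions although no long SPT5 interval was. All 167 overlapped a SPT5 interval of any strength in both lists, which the permissive calling makes common, since 9656 of the 10000 NELFE intervals did so. An interval with a q-value of 0.01 or less was found in both SPT5 lists at 141 regions, or 84.4% (78.2 to 89.2%). The share was 62.8% over all 10000 NELFE intervals, 59.4% over narrow ones and 93.0% (88.6 to 95.8%) over the 200 regions with a long SPT5 interval. Since longer regions have more room to overlap and SPT5 length entered the rule, these shares are a description. A further 15 regions reached this q-value in 1 SPT5 list, and 11 in neither.

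The 11 regions with no SPT5 interval at that q-value were weak in NELF too, with mean NELF folds of 2.46 to 3.32 against a median of 4.40 over all 167. The region at Zfp423, a zinc finger transcription factor gene (chr8:87956702-87962155), had folds of 3.08 and 2.54 with NELFB:HA, 3.56 and 2.98 with NELFE and 1.95 and 2.0 with SPT5. A region at the start shared by the collagen genes Col4a1 and Col4a2 (chr8:11312283-11317152) gave 2.77 and 2.75, 3.15 and 4.6, and 1.95 and 2.05 in the same order. The others with the highest NELFE 1 folds were at Gm34847 and at 2 places outside any gene, on chromosomes 1 and 16. Their SPT5 folds ran from 1.73 to 2.19, against a median of the mean SPT5 fold of 3.01 over all 167 regions.

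The share of regions that held a gene start was near that of all strong NELFE intervals, although the regions were longer (median 4058 against 1712.5 bp). A longer interval has more room to hold a start, so near-equal shares do not mean an equal tendency to sit at starts. Leaving out chromosome 18, which the table of starts does not cover, 106 of 161 regions held a table start, or 65.8% (58.2 to 72.7%). The share was 69.7% of all strong NELFE intervals and 68.4% of broad regions with a long SPT5 interval. Starts of 2 or more genes were in 20.5% (15 to 27.4%) of the regions, against 14.6% of all strong NELFE intervals, where shorter intervals have less room. A further 35 regions touched a gene without holding a table start, among them those at Myc and Ccnd1. The table of starts holds 79.9% of the protein-coding genes, so some of these may hold a start, and the same table served every class compared. Regions with a start had higher median NELFE folds (5.14 and 5.57) than the 20 that touched no gene (3.78 and 4.24), while their lengths were similar, at 3914 and 4171 bp against 4235 and 4592 bp.

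The extents of the regions around starts are given as a description. At the 73 regions with the start of a single gene, the NELFE 1 interval extended a median of 1951 bp upstream and 2144 bp downstream, and further downstream at 42 of them. Narrow intervals extended 552 bp upstream and 735 bp downstream, further downstream at 61.5% against 57.5% here. The broad regions with a long SPT5 interval had 1971 and 2393 bp. Only intervals that hold the start were measured, so each reached to both sides of it. Length entered the rule, so longer extents in both broad classes are no separate result.

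**Figure D2:**
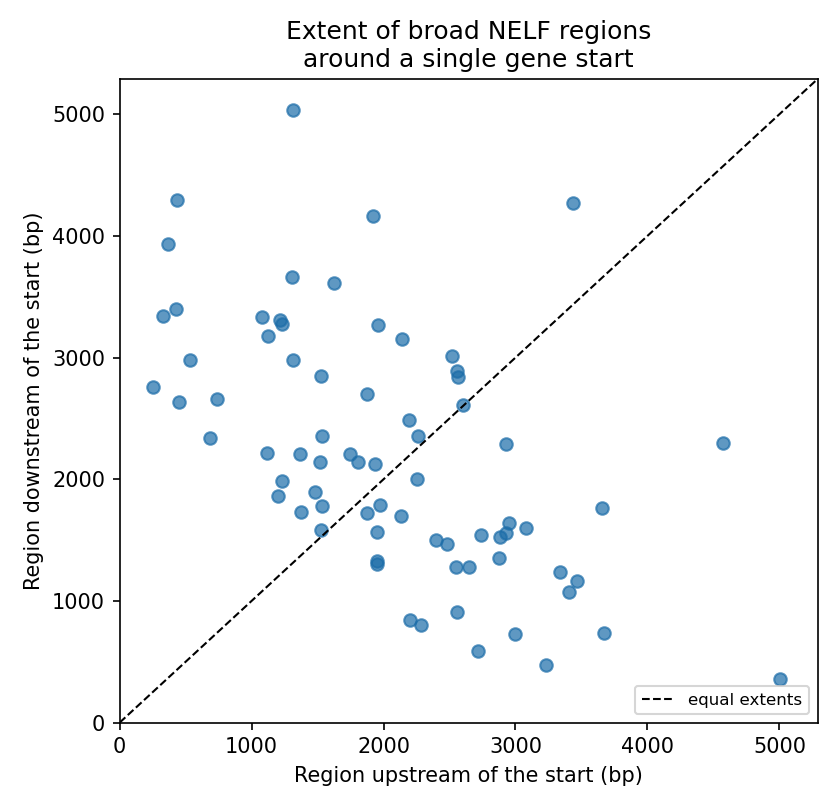
Distance in bp from the start to the upstream end (horizontal) and to the downstream end (vertical) of the NELFE 1 interval, with 1 point for each of the 73 broad NELF regions without a long SPT5 interval that hold the start of a single gene. The dashed line marks equal extents, and 42 points lie above it.

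The median length of the genes that started in the regions lay between those of the other classes. The 139 genes had a median RefSeq length of 16374 bp (95% interval from order statistics 13038 to 26571 bp), against 10796 bp (7819 to 13422 bp) for the 181 genes in broad regions with a long SPT5 interval and 21305 bp for the 6716 genes in narrow intervals. Genes under 5000 bp made up 20.1% (14.3 to 27.6%) of them, against 32.6% (26.2 to 39.7%) and 14.4%. The interval of the median overlaps the one at long SPT5 intervals narrowly and includes the narrow intervals' value. With only the longest gene of each region counted, the median was 24912 bp (15401 to 35307 bp). It was 14491 bp (11943 to 19286 bp) with a long SPT5 interval and 25699 bp (24832 to 26716 bp) in narrow intervals. The order was the same, but the value lay close to that of the narrow intervals, and the intervals of both broad classes overlapped.

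**Figure D3:**
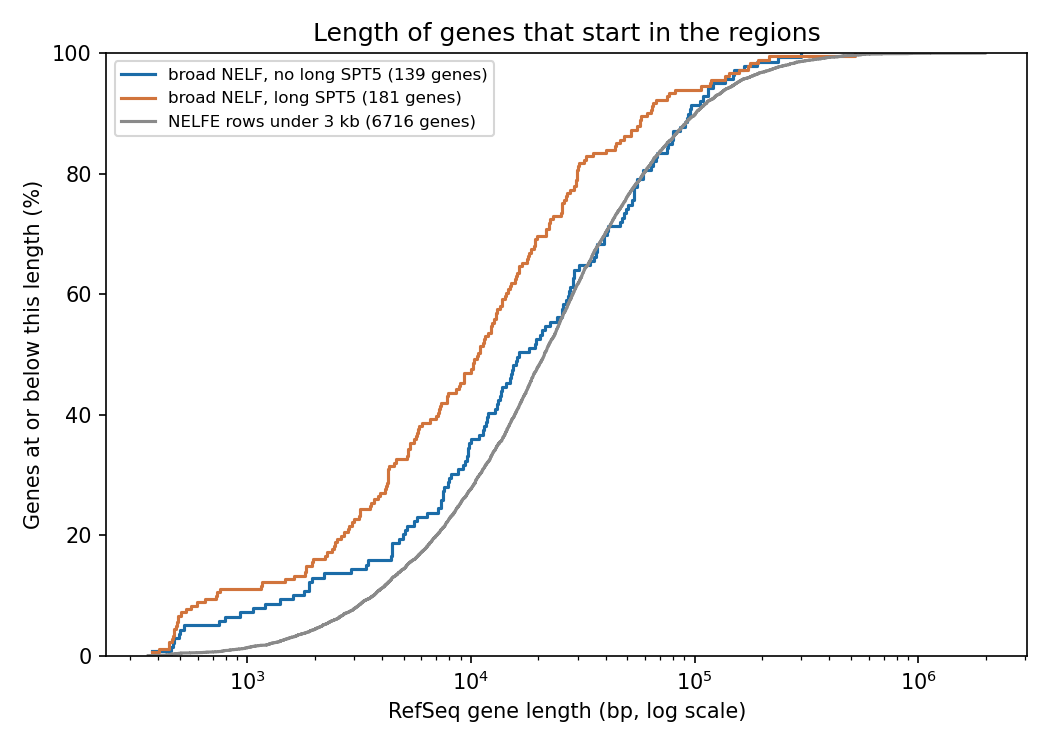
Share of genes (%) at or below each RefSeq gene length (bp, log axis) for genes that start in the 167 broad NELF regions without a long SPT5 interval (139 genes), in the 200 with one (181 genes) and in narrow NELFE intervals (6716 genes). The curve for the 167 regions runs between the others at short lengths and meets that of the narrow intervals above its median of 16374 bp.

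A few of the genes were so short that the region covered them from end to end. This held for a protein-coding gene at 13 of 167 regions, or 7.78% (4.6 to 12.9%), against 1.09% of all strong NELFE intervals, 0.407% of narrow ones and 9% of broad regions with a long SPT5 interval. A longer interval can hold a whole gene more easily, and length entered the rule. Among the genes covered were histone genes at 5 places, Rpl41, Gadd45g, Ier3, Tmsb10, Zbtb45, Naa38 with Tmem88, and Grcc10. Tmsb10 encodes thymosin beta 10, which binds actin monomers.

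**Figure D4:**
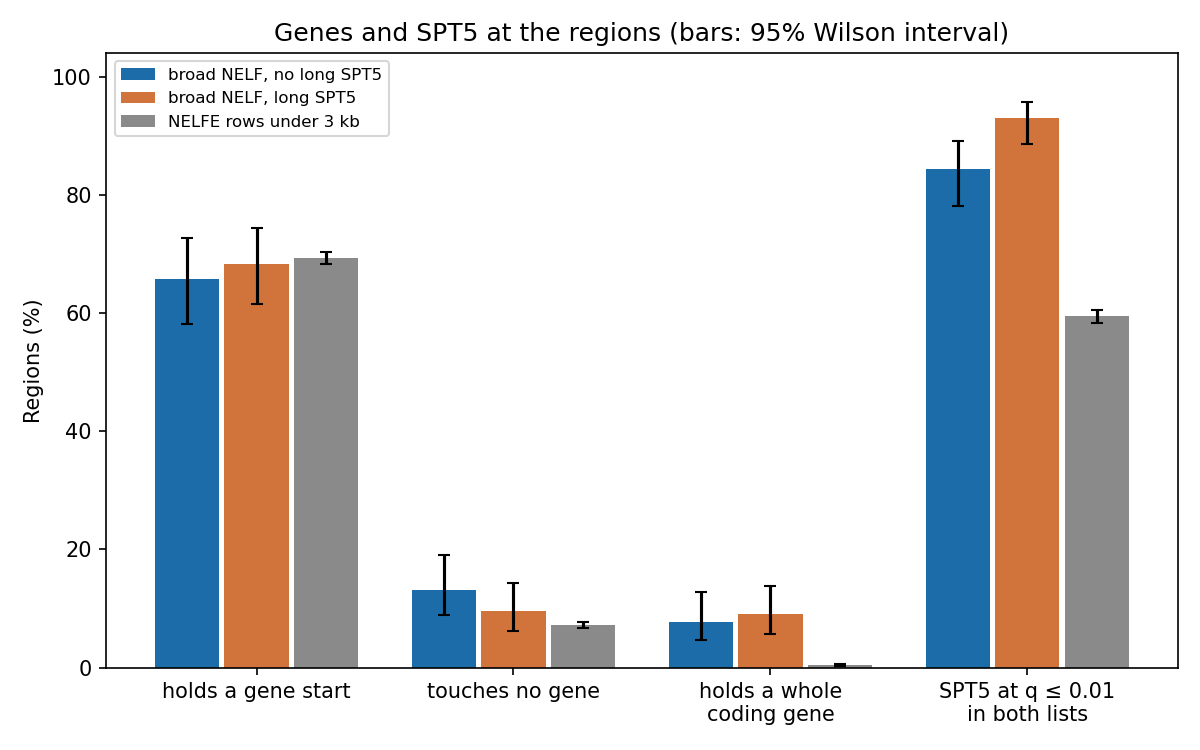
Share of regions (%) that hold a table start (chromosome 18 left out), touch no RefSeq gene, hold a whole protein-coding gene, or overlap a SPT5 interval with a q-value of 0.01 or less in both lists, for the 167 broad NELF regions without a long SPT5 interval, the 200 with one and the 8349 narrow NELFE intervals. Bars carry 95% Wilson intervals; the start shares are 65.8, 68.4 and 69.4%, and the SPT5 share is 84.4% for the 167 regions and 59.4% for narrow intervals.

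Replication-dependent histone genes had the highest NELF enrichment of any gene list in the regions. Of 56 such genes in strong NELFE intervals, 11 were in the 167 regions (19.6%), 17 in broad regions with a long SPT5 interval and 19 in narrow intervals. Over all 10478 genes, 186 (1.78%) were in the 167 regions and 259 in broad regions with a long SPT5 interval. The 11 genes lay in only 5 regions, so they are not 11 independent cases. They are also close copies of each other, and how reads that map to several places were treated is not given in the sources used here. The mean NELF fold of the 5 regions ran from 7.30 to 12.8, with a median of 9.40 against 4.40 over all 167 regions.

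The region over H1f1, H3c1 and H4c1 (chr13:23759739-23765076) led all 167. NELFB:HA gave folds of 13.1 in both libraries, NELFE 13.3 and 11.7, and SPT5 9.97 and 9.39. Its SPT5 intervals of 7542 and 7570 bp were longer than NELFE 1 (5338 bp) and shorter than NELFE 2 (9432 bp), just under the limit of the rule. At H2bc18 and H3c13 (chr3:96267013-96270271) the folds were 8.47 and 10.8, 14.0 and 10.2, and 9.95 and 8.0, so SPT5 overlapped the NELF range. The region at H4c3 gave 11.7 and 7.40, 10.4 and 8.09, and 8.92 and 7.88 in the same order, again with overlap. At H2bc9 and H3c7 the NELFE folds of 10.3 and 12 were above both the NELFB:HA folds (6.98 and 7.14) and the SPT5 folds (7.02 and 4.94). The region over H2ac20, H2ac21 and H2bc21 was the weakest of the 5, with 8.35 and 5.20, 9.25 and 6.41, and 4.62 and 4.79.

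Immediate-early genes formed the other list with a high share. Their share in broad regions with a long SPT5 interval was above that of all genes too, as for the histone genes. Of 33 in strong NELFE intervals, 7 were in the 167 regions (21.2%, beside 1.78% of all genes), 5 in broad regions with a long SPT5 interval and 17 in narrow ones. The 7 are the transcription factor genes Fos, Fosl2, Egr1, Atf3 and Myc, the stress-induced Gadd45g, and Ier3, each in a region of its own. Their mean NELF folds ran from 3.65 to 7.65 and their mean SPT5 folds from 2.34 to 3.55, beside a median SPT5 fold of 3.01 over all 167 regions.

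The region at Fos (chr12:85471943-85475459), whose TATA box is printed above, had folds of 8.07 and 7.99 in NELFE, 6.62 and 4.71 in NELFB:HA, and 3.26 and 2.91 in SPT5. At Egr1, on chromosome 18, they were 9.56 and 8.17, 7.19 and 5.70, and 3.13 and 2.87. The SPT5 intervals were 6563 and 6505 bp long at Fos and 7021 and 7384 bp at Egr1. The Myc region held an end of the gene's span, whether 5′ or 3′ was not determined, but no table start. Its NELF folds were 4.49, 4.09, 6.43 and 4.30 and its SPT5 folds 3.74 and 2.09. The SPT5 interval at Myc was 4156 bp in SPT5 1 and 7385 bp in SPT5 2. Fosl2 was a region with NELFB:HA (4.87 and 4.11) above NELFE (4.0 and 3.51). Atf3, a stress-induced factor, had the lowest NELFB:HA folds of the 7, at 2.90 and 2.69, with NELFE at 4.62 and 4.39.

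**Figure D5:**
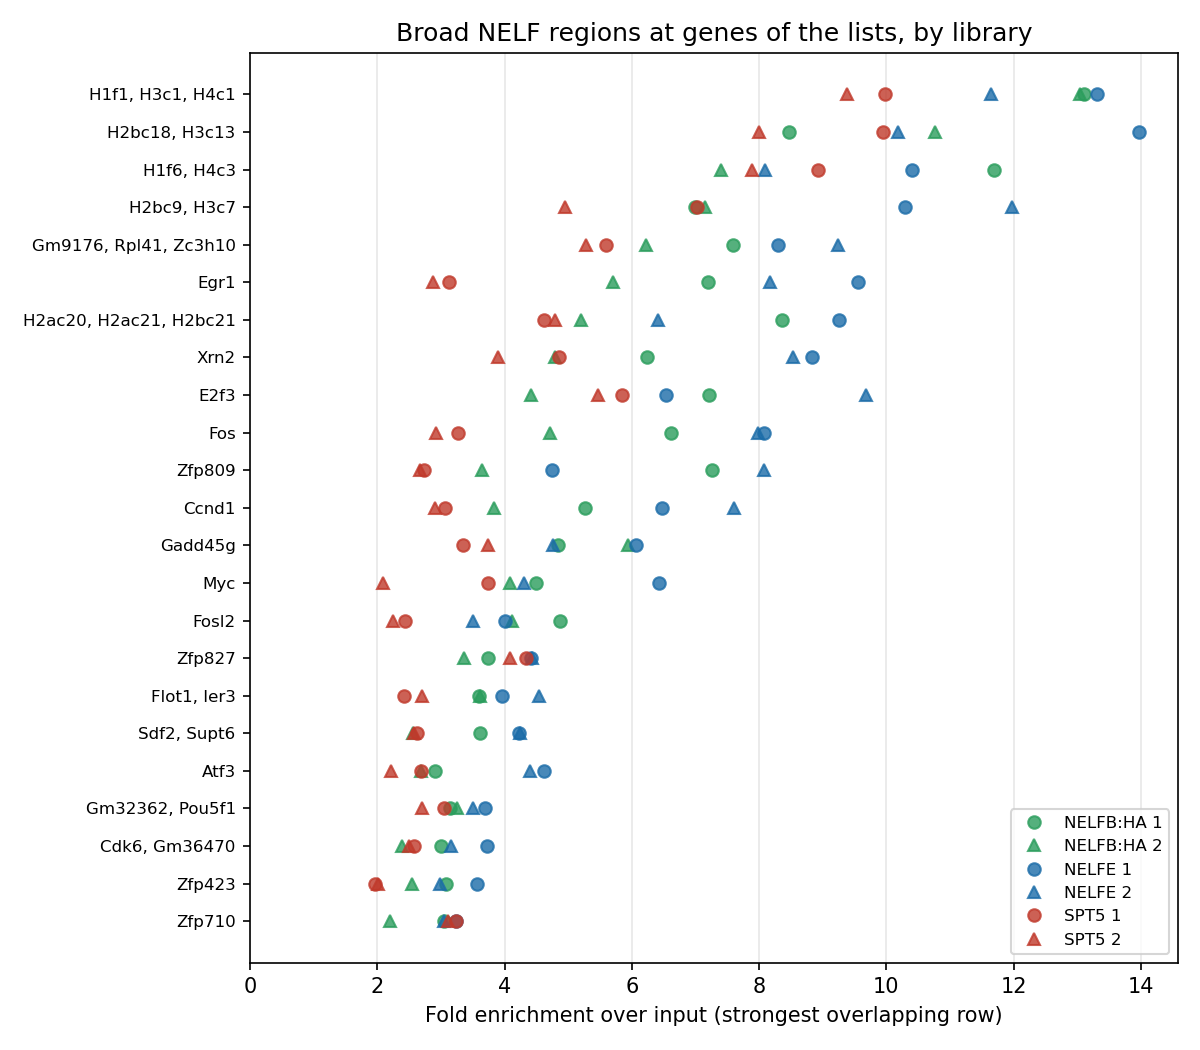
Fold enrichment over input (horizontal) in each of the 6 libraries at the broad NELF regions without a long SPT5 interval that hold a gene of the lists, named by the genes they touch and ordered by mean NELF fold. Circles are replicate 1 and triangles replicate 2; histone regions lead, with SPT5 folds up to 9.97, while Fos and Egr1 have NELFE folds of 7.99 to 9.56 and SPT5 folds of 2.87 to 3.26.

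The remaining lists had at most 4 genes in the regions. The cell cycle, Myc and p53 list had 4 of 37, or 10.8% beside 1.78% of all genes (Ccnd1, Cdk6, E2f3 and Myc, which is on the immediate-early list too). Ccnd1, the gene of cyclin D1, had one of the longest regions (chr7:144937059-144944426), with intervals of 4738 and 8527 bp in NELFB:HA and 7368 and 8174 bp in NELFE, and folds of 5.26, 3.83, 6.48 and 7.60. Its SPT5 intervals of 5517 and 5332 bp, with folds of 3.06 and 2.91, were shorter than both NELFE intervals. E2f3 had NELF folds of 7.22, 4.41, 6.53 and 9.68 and SPT5 folds of 5.85 and 5.47, the highest SPT5 values of that list. Pausing and elongation factors had 2 of 36 (5.56%), the histone chaperone gene Supt6 and Xrn2, whose product is the exonuclease of transcription termination. Xrn2 gave 6.23 and 4.79, 8.83 and 8.54, and 4.85 and 3.89.

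Among pluripotency factors the only gene was Pou5f1, which encodes OCT4, out of 23, while 11 were in broad regions with a long SPT5 interval and 6 in narrow intervals. The Pou5f1 region (chr17:35501392-35507941) had folds of 3.15 and 3.26, 3.70 and 3.51, and 3.05 and 2.70. Its mean NELF fold of 3.40 was below the median of 4.40 over all 167 regions. Ribosomal protein genes had 1 of 84 (Rpl41) and Zfp zinc finger genes 4 of 225, both shares (1.19% and 1.78%) near that of all genes. No gene was in the regions from the lists of heat shock and chaperone genes (0 of 28), chromatin modifiers (0 of 30), RNA processing factors (0 of 45), FGF, BMP and Nodal signalling (0 of 24), noncoding host genes (0 of 10) or developmental regulators (0 of 7). At the 1.78% of all genes, lists this small would hold few or none, so these zeros are not read as an absence. RNA processing factors had 9 genes in broad regions with a long SPT5 interval. Of the cell type markers, 3 of 5 of stem cells (Pou5f1, Sox2 and Zfp42) were in strong NELFE intervals, 1 of 4 of primitive endoderm (Sox7), 1 of 3 of neural cells (Sox1) and none of mesoderm (of 3) or fibroblasts (of 5). A NELF interval does not measure expression.

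Single regions outside the lists also stood high. Tmpo, which encodes lamina-associated polypeptide 2, had folds of 13.7 and 6.70 in the NELFB:HA libraries, 15 and 11.9 with NELFE, and 5.73 and 6.65 with SPT5. The Krüppel-like factor gene Klf7 gave 11.4 and 7.99, 13.7 and 12.4, and 6.28 and 6.48. Ing1, a gene of the inhibitor of growth family, gave 10.8 and 6.44, 12.2 and 13.3, and 5.73 and 5.32. In all 3 the NELFE folds were above the SPT5 folds, and NELFB:HA 1 was above NELFB:HA 2. The region at Mttp, the microsomal triglyceride transfer protein gene, and Trmt10a, and those at Gm38882 with Gm38883 and at Cep295, complete the 10 highest, with mean NELF folds of 10.3, 9.23 and 8.98.

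The longest regions were not the most enriched. Pigv, a gene of GPI anchor synthesis, had the greatest mean NELF length (8452 bp) with a mean NELF fold of 2.98. Zbtb45 had 7935 bp and 2.84, Etl4 7174 bp and 2.79, and Igf2bp1, an mRNA-binding protein gene, 7073 bp and 4.06. The exception was the H1f1 region, with 7455 bp and 12.8. All of these but H1f1 and Ccnd1 lay below the median NELF fold of the 167 regions.

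The strongest SPT5 signal of all 167 was at a region with snRNA genes. A small nuclear, nucleolar, transfer or micro RNA gene was touched by 8 of 167 regions, or 4.79% (2.45 to 9.17%), beside 3.29% of all strong NELFE intervals. The highest SPT5 folds of all members were at chr5:115489168-115492263, which touches the snRNA genes Gm24265 and Gm24407 beside Sirt4 and Pxn. There SPT5 gave 13.5 and 10.1, above NELFB:HA (6.59 and 5.49) and NELFE (7.84 and 8.31) in every library. At Rnu2-10, an snRNA gene on chromosome 11, SPT5 gave 6.21 and 6.88 and the NELF lists 4.38, 5.85, 5.18 and 3.89. At Rnu7 the folds were 4.98 and 4.24, 6.53 and 5.69, and 5.12 and 4.20, with no such order. The Gm24265 region and Rnu2-10 were named after their values were seen. Among the 167 regions they had the largest excess of the mean SPT5 fold over the mean NELF fold. How often SPT5 was above NELF over all strong NELFE intervals is not given here. The SPT5 libraries had longer tags than the NELF libraries and a different input tag count. The antibody cannot be told apart from these technical differences in any such comparison.

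A minority of the regions lay outside annotated genes. No RefSeq gene was touched by 22 of 167, or 13.2% (8.86 to 19.1%), against 7.1% of all strong NELFE intervals, 7.20% of narrow ones and 9.5% (6.17 to 14.4%) of broad regions with a long SPT5 interval. Their median distance to the nearest protein-coding gene was 14873 bp, from 219 to 770136 bp, and 13 were over 10000 bp away. SPT5 reached the q-value of 0.01 in both lists at 18 of the 22. The most enriched, chr1:86486803-86491198, lay 35359 bp from Ptma, the prothymosin alpha gene, with folds of 4.79 and 5.22, 5.03 and 6.75, and 4.07 and 3.85. A neighbour at chr1:86501540-86506096, 20461 bp from Ptma, gave 4.64 and 3.57, 4.95 and 4.25, and 3.53 and 3.58. The region at chr2:71865812-71869996, 3219 bp from Pdk1, a pyruvate dehydrogenase kinase gene, had NELFE folds of 6.54 and 7.17. The region farthest from a protein-coding gene, chr3:11210267-11214493, still had NELF folds of 3.05, 3.46, 4.29 and 4.71. A total of 9 pairs of regions lay within 100 kb of each other, among them H4c3 with the H1f1 region and the 2 regions near Ptma.

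Members lay close to both length limits of the rule. The shortest NELFE 1 intervals kept were at Jup (3002 bp), Sars (3012 bp) and Hmgb1 (3022 bp), and the longest of the shorter intervals that met every other criterion were at Gm16174 (2980 bp), 1700031P21Rik (2978 bp) and Lrrc58 (2966 bp). Hmgb1, a chromatin protein gene, had NELFE folds of 9.39 and 12.1, and Lrrc58 had 8.49 and 8.55. A further limit is SPT5 length, where Ube2n (7976 bp), Pigv (7976 bp) and Tnpo2 (7959 bp) were kept. Bicral (8040 bp), Ptprk (8048 bp) and Gsk3b (8055 bp), a kinase gene of the Wnt pathway, were counted as having a long SPT5 interval. At Ube2n, a ubiquitin-conjugating enzyme gene, the 7976 bp were in SPT5 1 and only 2605 bp in SPT5 2, and at Gsk3b 8055 bp were in SPT5 1 and 3490 bp in SPT5 2, so both were near the limit in 1 list alone.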

How the data were processed

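ChIP-seq peak lists of 2 control libraries each were used for NELFB:HA, NELFE and SPT5. Per the file headers, MACS 2.1.1.20160309 called broad intervals for each library against its input with p-value limits of 0.01 and 0.1, and the submitters' processing notes name Bowtie2, deepTools, MACS2 and mm10. The deposited lists give length in bp, pileup (mean coverage), fold (ratio to the local background), and −log10 p and −log10 q per interval; the header says that q is not calculated, but the deposited −log10 q column holds values and was used. ChIP libraries held 27324697 to 62312558 tags, of 50 bp for NELF and 100 or 101 bp for SPT5. Both SPT5 libraries have the same input tag count (50899697), which differs from those of the NELF libraries. Pileup is not comparable between libraries.

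Regions were selected, joined by any overlap and matched to RefSeq GRCm38.p6 tables with Python 3.11.15, pandas 2.3.3 and SciPy 1.17.1; selection was tested on simulated data. A gene counts as inside where its table start is, or, for genes not in the table of starts, an end of its span. Named are the 10 regions of highest mean NELF fold, the 6 longest, those beside each limit, up to 5 without SPT5 at a q-value of 0.01, and those with a gene of the lists. Members and lists were chosen with earlier results of these data known. Wilson intervals (95%) cover counting error over regions, which are not replicates. The labels do not say whether replicates were separate cultures, so the p-value measures only the spread between these samples. The alternatives varied each limit of the rule, the ranking, the overlap, the q-value limit and the libraries used. One region is counted but not reported by name here.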

Additional observations from a re-analysis of the deposited data

How the results depend on the processing

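Of 33 alternatives over 5 results, 20 stayed within the spread of the main value or within 1.5 times the main count, 13 moved and 0 reversed. The number of regions moved with the limits of the rule and the number of lists: 397 with a minimum length of 2500 bp, 35 with 4000 bp and 65 with 5000 intervals a list, where fewer intervals enter. It was 751 without replicate 1 and 520 without replicate 2 of every antibody, where fewer lists had to match. It ran from 117 to 231 under the other limits, rankings and overlaps, and with NELFE 2 in place of NELFE 1 it was 167, of which 166 were shared. The share with a start was 48.5% with a minimum of 4000 bp (16 of 33) and, when either end of any RefSeq gene was counted and chromosome 18 included, an alternative chosen after seeing the data, 74.9%. The share with SPT5 in both lists was 92.2% at a q-value of 0.05, 73.1% at 0.001 and 75.5% with at least 50% of the region overlapped, and from 86.2 to 91.6% with 1 SPT5 list left out.

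The NELFE minus NELFB:HA difference was 0.536 without replicate 2 and 1.60 without replicate 1, with no test. With a replicate block it was 1.07, with an SD of 0.754 between the pairs and an exact two-sided p of 0.5 (n = 2 pairs). Same-numbered libraries did not deviate together over the 167 regions, with correlations of 0.0388, 0.0904 and -0.0100 between antibodies, so the numbers were not taken as pairs. Libraries differed in depth, and the part of depth in interval length was not tested; in each antibody the library with more tags had the shorter median.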

Other observations

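The X chromosome was outside the rule. Of 250 NELFE 1 intervals there at the same minimum pileup, 2 met the other criteria for a broad NELF region without a long SPT5 interval and 3 had a long one. The 2 were at Tfe3, a transcription factor gene of pluripotency exit and lysosome control (4599 bp, NELFE 1 fold 5.53), and at Gm34661 (3383 bp, 3.80). They are too few to set beside the autosomes.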
